A study of Mus musculus with 10 samples.

Results

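The regions described here were chromatin peaks that lay between genes, over 20 kb and at most 100 kb from the closest annotated transcription start site (TSS). They were 15232 of the 108253 peaks of the data set (14.1%) and 42.9% of its 35496 intergenic peaks. The annotation and the distance chose them among the deposited peaks. The number of rows in the table equals that of a merged set of H3K18La consensus peaks from developing and mature retina, while the methods also name merged H3K18La and H3K27Ac peaks of the explants. Which set was deposited is not stated. Signal of one or both marks thus set which regions could be included, and with the first set sites with H3K27Ac alone would be missing. The peaks came from CUT&Tag, a method that cuts and tags DNA where an antibody has bound a histone modification, so that read density maps that modification. Retinas of wild-type C57BL/6J mice at postnatal day 28 were explanted and held for 48 hours in Neurobasal-A medium with either 5 mM or 25 mM glucose, and all groups shared strain, age, medium and culture time. Lactylated histone H3 (H3K18La) was profiled in 3 libraries per glucose level and acetylated histone H3 (H3K27Ac) in 2 per level, with 500000 cells per assay and a single batch in the labels. The retina is a mixture of cell types, so more cells carrying a mark and more of the mark per cell cannot be told apart in these libraries.

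Intergenic chromatin at this range holds many of the distal enhancers of a genome, which act on promoters through looping and need not act on the closest gene. H3K27Ac is the classical mark of active enhancers and promoters. H3K18La is a modification built from lactate, the end product of glycolysis, and photoreceptors are known for a high rate of glycolysis even with oxygen present. A gene name given to a peak below is therefore the closest gene of the deposited annotation and not a target.

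The central 300 bases of 6 of these peaks are shown because the results below turn on them. The first is the strongest peak, by the mean over the 10 libraries, of the run with the most peaks. The second is the strongest peak for H3K18La, and 2 lie upstream of the cone gene Thrb and the horizontal cell gene Prox1. The last 2 had the largest rise and the largest fall of H3K18La. The sequences are GRCm38, written 5′ to 3′ on the plus strand, with matches to short factor motifs in capitals on either strand.
4930543I03Rik, chr15:86811927-86812226, plus strand: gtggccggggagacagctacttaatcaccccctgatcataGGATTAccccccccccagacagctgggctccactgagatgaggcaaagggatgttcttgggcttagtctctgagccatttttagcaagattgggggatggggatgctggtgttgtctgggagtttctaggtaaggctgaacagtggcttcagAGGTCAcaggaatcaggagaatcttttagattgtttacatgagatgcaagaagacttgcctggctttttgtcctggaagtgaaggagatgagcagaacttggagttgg
I730028E13Rik, chr9:61164871-61165170, plus strand: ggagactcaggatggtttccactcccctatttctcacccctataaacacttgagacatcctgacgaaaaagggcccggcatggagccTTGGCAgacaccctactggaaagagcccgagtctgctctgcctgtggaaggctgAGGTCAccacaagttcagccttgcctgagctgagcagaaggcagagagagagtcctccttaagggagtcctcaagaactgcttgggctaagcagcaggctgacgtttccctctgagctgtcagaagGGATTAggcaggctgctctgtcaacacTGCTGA
Thrb, chr14:17606101-17606400, plus strand: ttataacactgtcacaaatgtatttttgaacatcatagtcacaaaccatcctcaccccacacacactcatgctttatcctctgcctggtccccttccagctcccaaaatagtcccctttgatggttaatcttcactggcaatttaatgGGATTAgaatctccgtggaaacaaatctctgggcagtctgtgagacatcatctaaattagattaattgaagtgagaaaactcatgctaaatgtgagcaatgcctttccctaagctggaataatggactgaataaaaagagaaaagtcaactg
Prox1, chr1:190269981-190270280, plus strand: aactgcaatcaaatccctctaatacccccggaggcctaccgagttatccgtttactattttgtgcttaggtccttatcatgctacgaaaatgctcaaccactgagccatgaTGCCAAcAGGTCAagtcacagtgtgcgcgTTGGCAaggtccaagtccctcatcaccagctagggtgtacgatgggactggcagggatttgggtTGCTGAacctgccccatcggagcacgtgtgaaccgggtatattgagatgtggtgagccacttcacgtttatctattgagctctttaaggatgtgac
Gm49679, chr16:30480240-30480539, plus strand: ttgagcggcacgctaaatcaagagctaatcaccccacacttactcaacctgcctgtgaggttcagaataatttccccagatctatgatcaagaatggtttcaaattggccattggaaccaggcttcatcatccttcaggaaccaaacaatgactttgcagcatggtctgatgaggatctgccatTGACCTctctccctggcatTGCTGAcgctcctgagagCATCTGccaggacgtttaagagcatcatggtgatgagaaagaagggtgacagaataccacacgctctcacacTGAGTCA
Nr1h2-ps, chr9:74423292-74423591, plus strand: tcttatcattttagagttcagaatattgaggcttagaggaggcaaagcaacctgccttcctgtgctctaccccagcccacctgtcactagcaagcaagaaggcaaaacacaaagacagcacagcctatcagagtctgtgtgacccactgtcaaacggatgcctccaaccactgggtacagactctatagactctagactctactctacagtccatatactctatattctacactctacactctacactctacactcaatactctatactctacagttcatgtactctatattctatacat
The motifs searched were TAATCC (CRX and OTX2, homeodomain factors of photoreceptors), TAATTA (other homeodomain factors), TGCTGA (part of the NRL and MAF site), AGGTCA (the core of nuclear receptor sites), CAGATG (E-box of NEUROD1), GGGCGG (GC box of SP and KLF), AGGGGGC (part of the CTCF motif), TGANTCA (AP-1), CTAAAAATA (MEF2) and TTGGCA (part of the NFI site). The CRX and OTX2 letters stood in 3 of the 6 windows. The Nr1h2-ps window held no match. A match describes letters only and is not evidence of binding.

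The 6 windows were selected, so the shares over all peaks are given as well. In the central 300 bases, TAATCC stood in 11.4% of the intergenic peaks of this range and in 11.5% of all other peaks. TAATTA stood in 6.74% against 4.85%, and CAGATG in 27.6% against 24.8%. GGGCGG stood in 4.53%, against 12.9% of other peaks and 44.8% of promoter peaks, and the CTCF letters in 3.94% against 5.97%. The peaks had a median GC content of 48.0%, below the 57.5% of promoter peaks, and a median CpG observed-to-expected ratio of 0.165 against 0.596 at promoters. Repeats made up 50% or more of the bases in 9.93% of them and in 4.82% of other peaks. The peaks thus had fewer CpGs than promoters, and the share with the CRX and OTX2 letters was close to that of other peaks.

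The 15232 peaks had a median width of 652 bp (214 to 5766 bp) and covered 11.8 Mb of the 96.3 Mb in all peaks. Their median distance to the closest TSS was 39.0 kb, and 52.2% lay upstream of it. They were spread over 5999 closest genes, of which 2799 had 1 such peak and 804 had 5 or more. The closest transcript was a lincRNA for 26.7%, a processed pseudogene for 24.3% and protein-coding for 19.0%. To the closest protein-coding TSS of GENCODE M21 the median distance was 98.0 kb, and 50.7% lay within 100 kb of one. The label held in that annotation, since 13 of the 15232 peaks overlapped a gene body.

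Depth limited single peaks. Values are RPKM, read density scaled to the length of the peak and to a library's denominator of reads, and whole reads could be recovered from them. The denominators ran from 1358008 to 7424470 reads, and the median peak of this set held 1 to 4 reads in a library. Between 13.2% and 46.9% of these peaks had no read in a given library, and 47 had none in any. Outside all peaks the mean density was 0.335 RPKM for H3K18La at 5 mM, 0.247 to 0.262 RPKM at 25 mM, and 0.116 to 0.300 RPKM for H3K27Ac, so the median peak stood 1.87 to 7.24 times above it. All replicate pairs differed by more than counting noise over all peaks (chi-square per degree of freedom 1.04 to 2.87) and were kept separate. As a check of the tissue, 47 of 49 photoreceptor genes had a promoter peak, with a median of 12.6 RPKM over the 10 libraries, against 8 of 28 genes of other cells such as lens and vessels (median 1.55 RPKM). For bipolar genes it was 15 of 19 (median 1.33 RPKM) and for Müller glia genes 21 of 25 (median 2.14 RPKM). Their levels were thus near that of the other cells.

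Both marks took a larger share of the reads of a library in these peaks at 25 mM glucose. For H3K18La the share of the denominator was 1.30%, 1.35% and 1.35% at 5 mM and 3.25%, 3.33% and 3.39% at 25 mM. For H3K27Ac it was 1.28% and 1.73% at 5 mM and 2.93% and 2.64% at 25 mM. Every 25 mM library was above every 5 mM library of its mark. The H3K18La share rose from 1.33% ± 0.0319 (SD, n = 3) to 3.32% ± 0.0689 (SD, n = 3), a ratio of 2.49. The H3K27Ac share went from 1.51% ± 0.323 (SD, n = 2) to 2.79% ± 0.208 (SD, n = 2), a ratio of 1.87. A two-sided exact permutation test of the glucose labels within both marks gave p = 0.0167, the smallest it can give (adjusted p = 0.0452 over the 19 tests of this kind made here). Among peaks with a mean of at least 1 RPKM the log2 difference was 1.26 with an adjusted p of 0.0633 in the same exact test, against 1.11 over the whole set. Within H3K18La alone the same exact test gave p = 0.1, the smallest that 3 against 3 libraries allow, and 2 against 2 libraries of H3K27Ac allow only larger values.

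**Figure D1:**
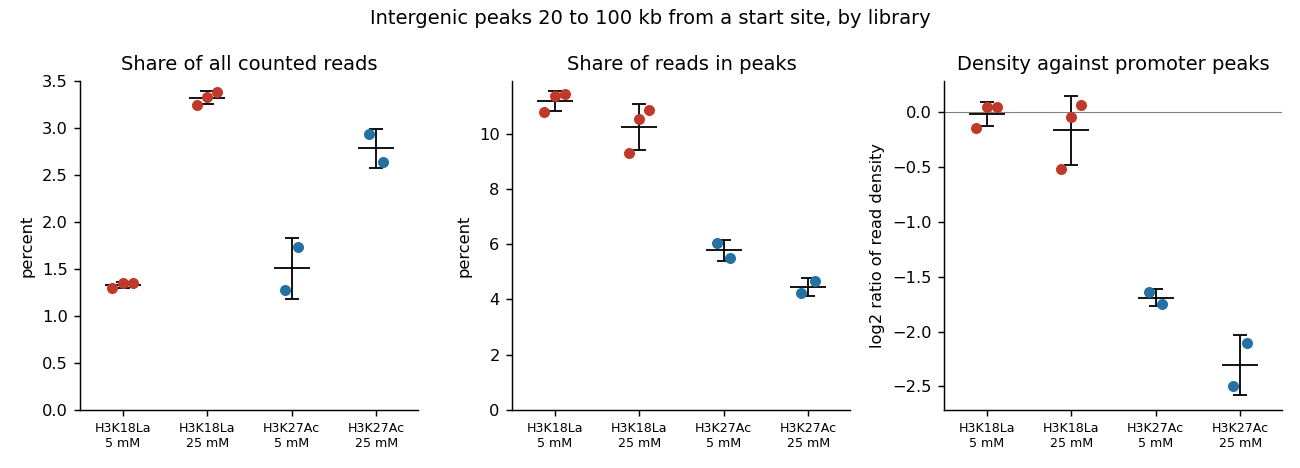
Share of all counted reads (percent), share of reads in peaks (percent) and log2 ratio of read density to promoter peaks for intergenic peaks 20 to 100 kb from a TSS. Each point is a library, the horizontal bar is the group mean and the error bar its SD (n = 3 for H3K18La, n = 2 for H3K27Ac). The share of all reads was higher at 25 mM in both marks, while the share of reads in peaks was not.

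Relative to peaks in general no such gain was seen. Of the reads that fell in peaks, these intergenic peaks took 10.8%, 11.4% and 11.4% for H3K18La at 5 mM and 9.29%, 10.6% and 10.9% at 25 mM, and the groups overlapped. For H3K27Ac they took 6.05% and 5.50% at 5 mM and 4.22% and 4.67% at 25 mM, without overlap. Over both marks the difference was -0.25 on the log2 scale (exact permutation p = 0.0333, adjusted p = 0.0792). Read density against intergenic peaks within 20 kb of a TSS fell by 0.22 on the log2 scale with glucose over both marks (exact permutation p = 0.0167, adjusted p = 0.0452). Against intergenic peaks beyond 100 kb it rose by 0.22 (exact permutation p = 0.0167, adjusted p = 0.0452). Among peaks with a mean of at least 1 RPKM these last differences were -0.16 (adjusted p = 0.106) and 0.12 (adjusted p = 0.317). Against promoter peaks it differed by -0.38 (exact permutation p = 0.117). The glucose differences in the share of the denominator, against near and against far peaks each missed the adjusted threshold in 6 of 10 fits without 1 library (adjusted p of 0.0528 to 0.0905 in the exact test), namely without any of the H3K27Ac libraries or H3K18La replicate 2 or 3 at 5 mM.

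Within this peak set the marks differed in how much of their signal lay at this range. If the peaks were called from H3K18La alone, that choice can raise H3K18La against H3K27Ac, and its part in this difference was not tested. The share of in-peak reads was 2.11 times as large for H3K18La as for H3K27Ac, a difference of 1.08 on the log2 scale within glucose levels (two-sided exact permutation p = 0.01, the smallest it can give, adjusted p = 0.0452). Every H3K18La library was above every H3K27Ac library. H3K18La density in these peaks was close to its density at promoter peaks, with log2 ratios of -0.14, 0.05 and 0.05 at 5 mM and -0.52, -0.04 and 0.07 at 25 mM. H3K27Ac density was far below promoters, with log2 ratios of -1.64 and -1.75 at 5 mM and -2.50 and -2.11 at 25 mM. The mark difference against promoters was 1.91 (exact permutation p = 0.01, adjusted p = 0.0452). Both mark differences missed the adjusted threshold in 6 of 10 fits without 1 library, among them each fit without an H3K27Ac library. Such fits allow fewer permutations. Without H3K18La replicate 2 or 3 at 5 mM the exact test gave p = 0.0167 (adjusted p = 0.0528), the smallest it can then give. Peak by peak, the H3K18La mean was above the H3K27Ac mean in 48.1% of these peaks at 5 mM and in 66.3% at 25 mM, against 11.2% and 15.3% of promoter peaks.

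At single peaks, H3K18La was called higher at 25 mM in 1868 of these peaks and lower in 43, 12.5% in all. The 1911 calls became 655, 839 and 1246 without replicate 2, 3 or 1 at 25 mM, 1211 without replicate 2 at 5 mM and 1077 with the replicate block. The call was an adjusted p under 0.05 in limma, fitted on log2(RPKM + 0.5), with the Benjamini-Hochberg method applied across the 108253 peaks. Over all peaks the same call was made for 17%, with 16.8% higher and 0.148% lower, so the share in this set was below the background. It was 17.0% for promoter peaks, 17.0% for intergenic peaks within 20 kb and 7.43% for those beyond 100 kb. With peaks under a mean of 1 RPKM left out, limma called 33.6% of the set and 37.4% of all peaks. The share was then 33.3% at promoters, 38.9% within 20 kb and 29.7% beyond 100 kb, so the set was close to promoters. The median log2 fold change so filtered was 1.03 over the set and 1.10 over all peaks. Without a filter the median log2 fold change was 0.58 over the set and 0.76 over all peaks. With the 1788 peaks that had no read in 1 glucose group set at their bounds, it was 0.56. These directions are relative to each library's denominator: with each library scaled to its reads in peaks the median was -0.14 and limma called 0 of the set (1362 at an unadjusted p under 0.05), and with median centring it was -0.055 and 426 were called. The groups did not overlap, with 25 mM higher, in 27.8% of the set and in 36.6% of all peaks. The p-values measure the spread between these libraries.

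The call rate was lower in each bin farther from the TSS. It was 15.1% of the 4793 peaks at 20 to 30 kb, 12.9% of 3074 at 30 to 40 kb, 11.4% of 3800 at 40 to 60 kb, 11.03% of 2222 at 60 to 80 kb and 8.27% of 1343 at 80 to 100 kb. The median log2 fold change of H3K18La went in the same order from 0.68 to 0.40, and that of H3K27Ac from 0.33 to 0.11. Levels were also lower farther out, since the median H3K18La mean at 25 mM was 1.39 RPKM in the closest bin and 0.866 RPKM in the farthest. Of upstream and downstream peaks 12.7% and 12.3% were called. Peaks with 50% or more of their bases in repeats were called in 6.81% and the others in 13.2%, and peaks closest to a processed pseudogene in 10.0%. The share called was 15.6% with TAATCC and 12.1% without it, and 18.4% with GGGCGG and 12.3% without it. Peaks with GGGCGG were also wider (median 800.5 against 647 bp) and had more H3K18La at 5 mM (median 0.894 against 0.749 RPKM). With and without TAATCC these medians were 666 and 651 bp, and 0.757 and 0.755 RPKM. The shares called are descriptions of peaks that share libraries.

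**Figure D2:**
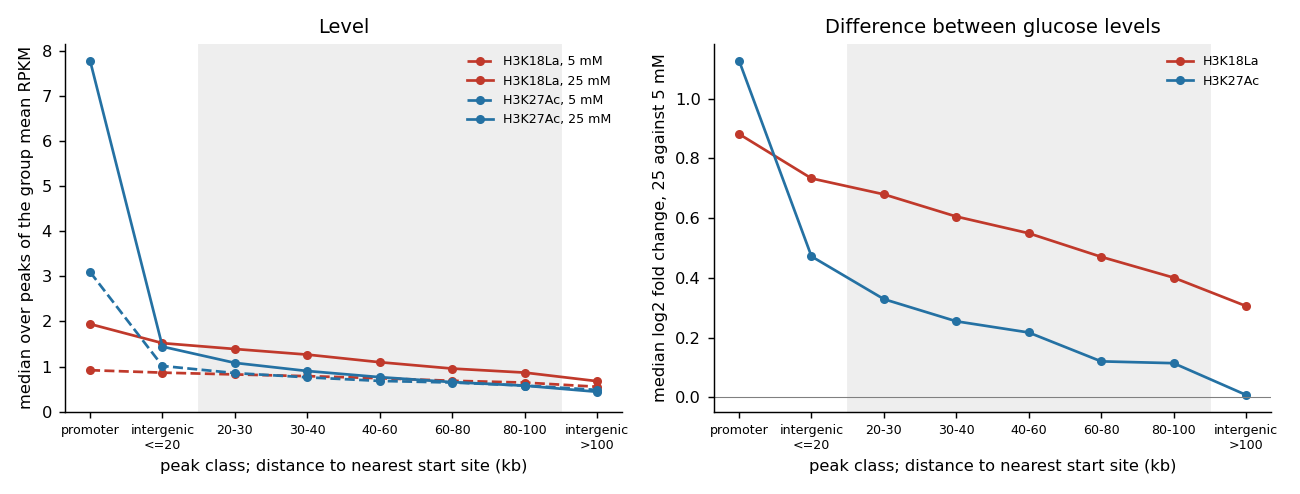
Median over peaks of the group mean RPKM (left) and median log2 fold change of 25 against 5 mM glucose (right) by peak class. The shaded bins hold the intergenic peaks 20 to 100 kb from a TSS, and both marks decline across them, H3K18La from 0.68 to 0.40 and H3K27Ac from 0.33 to 0.11 on the log2 scale.

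The strongest peaks of the set were ranked by their mean over both glucose levels, so the 25 mM values helped to choose them and the values below describe them. The highest mean belonged to a 1079 bp peak at chr9:61164482-61165560, 25.97 kb downstream of the lincRNA gene I730028E13Rik. Its H3K18La values were 14.1, 12.5 and 6.82 RPKM at 5 mM and 42.9, 42.6 and 45.9 RPKM at 25 mM, so every 25 mM library was above every 5 mM library. The log2 fold change was 1.99 ± 0.34 (SE) with an adjusted p of 0.0120 in limma. Next came a 650 bp peak 35.4 kb downstream of the pseudogene Gm12288, with 12.4, 9.20 and 10.2 RPKM at 5 mM and 34.4, 31.0 and 41.0 RPKM at 25 mM. Its log2 fold change was 1.70 ± 0.26 (SE, adjusted p = 0.00920 in limma). The other peaks of the top 5 lay 23.3 kb upstream of Strap, a WD-repeat protein gene, 63.2 kb upstream of the pseudogene Gm9586 and 97.5 kb downstream of Stmn4, a stathmin gene for a tubulin-binding protein. They were called with log2 fold changes of 2.28, 1.49 and 1.47, and the Strap peak was 73.7% repeat sequence.

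For H3K27Ac the strongest peaks were a different set of 5, each of which was also called higher for H3K18La. At chr15:68286435-68287618, 22.2 kb upstream of the pseudogene Gm10240, H3K27Ac was 13.3 and 25.97 RPKM at 5 mM and 79.0 and 59.7 RPKM at 25 mM. H3K18La there went from 6.41, 6.84 and 3.73 RPKM to 42.5, 29.7 and 26.8 RPKM (log2 fold change 2.46 ± 0.32 SE, adjusted p = 0.00655 in limma). At chr15:86811351-86812803, closest to the lincRNA gene 4930543I03Rik, H3K27Ac was 8.91 and 15.1 RPKM at 5 mM and 91.6 and 50.1 RPKM at 25 mM. No 5 mM value reached a 25 mM value at either peak. An 896 bp peak lay 44.6 kb downstream of the TSS of Elovl4, which encodes an elongase for the very long fatty acids of photoreceptor membranes. Its H3K27Ac values were 11.6 and 16.9 RPKM against 83.9 and 44.8 RPKM, and its H3K18La values 6.88, 2.80 and 4.11 RPKM against 41.4, 27.998 and 24.1 RPKM. The others lay 20.99 kb upstream of Strap and 26.9 kb upstream of the lincRNA gene Gm11729. The log2 fold changes of H3K27Ac at these 5 peaks were 1.70 to 2.49. None passed the adjusted threshold in the planned limma fit, in which no peak of the table did, and all 5 passed with robust moderation (adjusted p of 0.0122 to 0.0274 in limma) and with voom.

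**Figure D3:**
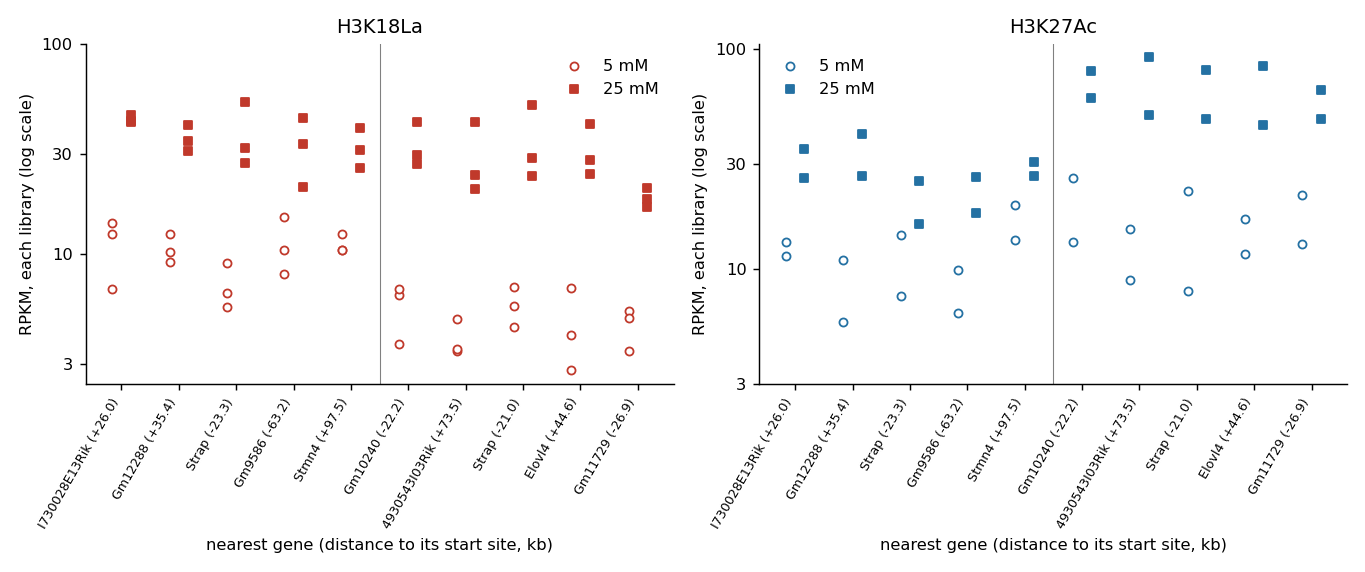
RPKM of each library (log scale) at the 5 peaks with the highest mean H3K18La (left of the line) and the 5 with the highest mean H3K27Ac (right of the line), labelled by closest gene and signed distance in kb. Open circles are 5 mM and filled squares 25 mM, and the 2 do not overlap for either mark at any of the 10 peaks, which were picked on means that include 25 mM (25 mM was higher without overlap in 36.6% of all peaks for H3K18La and 53% for H3K27Ac).

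Of the 5 largest called rises of H3K18La, 4 were at peaks with 0 to 4 reads per library at 5 mM, and the Gm11732 peak had 1, 14 and 0. At chr16:30480111-30480670, 27.5 kb downstream of the pseudogene Gm49679, no 5 mM library had a read, and the 25 mM libraries had 6.36, 7.91 and 6.62 RPKM from 7, 18 and 11 reads. Against the level that 3 reads over the group would give, 25 mM was at least 11.5-fold higher (adjusted p = 0.00640 in limma). H3K27Ac at that peak was 0.413 and 2.59 RPKM at 5 mM and 2.23 and 3.13 RPKM at 25 mM, so its groups overlapped. The other 4 were closest to Gm43704, Tnfrsf17 (a receptor of plasma cells), Gm11732 and A530058N18Rik, with log2 fold changes of 3.38 to 3.78. At the Tnfrsf17 peak, 26.3 kb upstream, H3K18La was 0, 1.81 and 0 RPKM at 5 mM and 16.7, 6.93 and 9.497 RPKM at 25 mM.

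Of the 43 peaks called lower, 2 had no overlap between the groups and a mean of at least 1 RPKM, the terms used for the rises too, and both rested on few reads. When only peaks with a mean of at least 1 RPKM were fitted, limma called 6 of the set lower and 2494 higher. At chr9:74423130-74423754, 58.1 kb upstream of Nr1h2-ps, H3K18La was 3.03, 1.23 and 3.53 RPKM at 5 mM from 4, 4 and 3 reads, and no 25 mM library had a read. The level at 25 mM was at least 3.81-fold lower. At a 384 bp peak 52.7 kb downstream of a TSS of Sp3, a zinc-finger factor of GC boxes, the values were 2.47, 2.01 and 1.92 RPKM from 2, 4 and 1 reads against none. That level was at least 2.43-fold lower by the floor of 3 reads (adjusted p = 0.0123 in limma). Neither of these bounds includes the counting error of the few reads at 5 mM.

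The peaks clustered along the genome. Chained across gaps no wider than those commonly used to stitch super-enhancers, they formed 7723 runs, of which 4793 were single peaks and 1476 held 3 or more, with 7531 peaks in the latter. The run with the most signal also had the most peaks, 41 peaks over 131 kb at chr15:86769087-86900501. It lay next to 4930543I03Rik and Gm49466, and 534 to 653 kb from a protein-coding TSS. Over the run, H3K18La was 3.35, 3.39 and 4.12 RPKM at 5 mM and 14.6, 14.8 and 15.5 RPKM at 25 mM, and H3K27Ac was 2.69 and 4.30 RPKM against 8.79 and 12.2 RPKM. H3K18La was called higher in 40 of the 41 peaks, against 16.8% of all peaks, with a median log2 fold change of 1.94. The H3K27Ac groups did not overlap, with 25 mM higher, in 39 of the 41, against 53% of all peaks. The run was chosen for its signal over both glucose levels, so these counts describe it.

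Another 10 peaks over 34.7 kb at chr15:31388675-31423366, 20.9 to 40.9 kb from protein-coding TSSs of which Ankrd33b was one, were all called higher for H3K18La (median log2 fold change 2.05). Their H3K27Ac was 5.36 and 9.52 RPKM at 5 mM and 22.5 and 31.8 RPKM at 25 mM. In another run of 22 peaks over 82.7 kb at chr9:49850423-49933088 near Ncam1, a neural cell adhesion gene, 19 were called higher. Over all peaks 16.8% were, and both runs were ranked by signal that includes the 25 mM libraries. H3K18La over that run was 2.63 to 2.87 RPKM at 5 mM and 10.2 to 10.6 RPKM at 25 mM.

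The 5 closest genes with the most peaks were all non-coding. The lincRNA gene 1700121L03Rik had 36, of which 16 were called higher for H3K18La (median log2 fold change 1.28), where 16.8% of all peaks were. Its strongest peak, at chr1:125100415-125101258, had 6.18, 7.09 and 6.98 RPKM at 5 mM and 45.8, 30.3 and 30.8 RPKM at 25 mM. Gm28003 had 30 peaks with 5 called, Gm42488 had 26 with 5, Gm47543 had 25 with 17 and Gm25200 had 24 with 6, so the shares of Gm28003 and Gm42488 were near that of all peaks. The closest protein-coding TSS to all of the Gm28003 peaks was that of Runx1, a hematopoietic factor, and to all of the Gm47543 peaks that of Ncam1, 100.3 to 232 kb away.

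Peaks closest to photoreceptor genes were often called. Of 49 photoreceptor genes, 10 had a peak in this range, 42 peaks in all, and 19 of them (45.2%) were called higher for H3K18La and none lower, against 16.8% called higher over all peaks. Their median log2 fold change was 1.46, against 0.58 over the set. Over these 42 peaks H3K18La was 2.28, 2.10 and 2.52 RPKM at 5 mM and 8.26, 7.43 and 7.72 RPKM at 25 mM. The same value over all 15232 peaks was 1.10 to 1.15 RPKM and 2.76 to 2.87 RPKM. Stronger peaks were called more often, 33.6% of the set when only peaks with a mean of at least 1 RPKM were fitted. The 16.8% is thus not a background of like level. H3K27Ac over the 42 was 1.97 and 3.15 RPKM against 6.45 and 5.36 RPKM. The glucose groups did not overlap in either mark. With the closest protein-coding TSS in place of the deposited gene, 77 peaks belonged to 15 photoreceptor genes, of which 31 were called higher and 1 lower (41.6% called, against 17% of all peaks).

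Thrb, the thyroid hormone receptor gene that directs cone opsin choice, accounted for 13 of the 42. All 13 lay upstream of it, 26.2 to 98.2 kb away at chr14:17558024-17634107, and 11 were called higher for H3K18La (16.8% of all peaks were), with log2 fold changes of 1.21 to 2.92 over the 13. The peak at chr14:17606007-17606496 had H3K18La of 2.90, 3.15 and 1.503 RPKM at 5 mM and 22.8, 12.5 and 13.8 RPKM at 25 mM (log2 fold change 2.48 ± 0.34 SE, adjusted p = 0.00712 in limma). Its H3K27Ac was 1.42 and 7.89 RPKM against 35.5 and 22.0 RPKM. A neighbour at chr14:17603461-17604019 had 9.33, 5.52 and 15.8 RPKM against 30.9, 31.2 and 28.3 RPKM. In all 13 peaks every 25 mM library had more H3K18La than every 5 mM library, against 36.6% of all peaks. Esrrb, an orphan nuclear receptor of rods, had 10 peaks with 2 called, Casz1, a zinc-finger factor, had 4 with 3 called, and Rxrg, a retinoid receptor of cones, had 7 with 0 called in limma (1 at an unadjusted p under 0.05) and a median log2 fold change of 0.48. These 4 genes were picked out after their values were seen.

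The lists for other cell types follow. Amacrine, horizontal and ganglion cell genes had 22 peaks. For H3K18La limma called 0 of them, against 17% of all peaks (1 at an unadjusted p under 0.05). Voom also called 0 of them, against 25.8% of all peaks. Their median log2 fold change was 0.22 (0.06 with peaks lacking reads in 1 group set at their bounds, and a mean of 0.0015). Over the 22 peaks H3K18La was 0.625, 0.982 and 0.882 RPKM at 5 mM and 0.883, 1.18 and 0.767 RPKM at 25 mM, with overlap. H3K27Ac over the same peaks was 0.748 and 0.868 RPKM against 2.01 and 1.57 RPKM, without overlap. Prox1, a homeobox gene of horizontal cells, had 7 of these peaks, all upstream, and was picked out after its values were seen. The 5 peaks of Tfap2c, a factor of amacrine cells, had a median H3K27Ac log2 fold change of -0.38 against 0.89 for Prox1, and by closest protein-coding TSS the median over the list was 0.11. H3K18La over the Prox1 peaks was 0.943, 1.18 and 0.941 RPKM against 1.16, 1.502 and 1.01 RPKM, and H3K27Ac was 1.05 and 1.07 RPKM against 3.81 and 2.77 RPKM. At the Prox1 peak at chr1:190268965-190271297 the log2 fold change was 0.52 for H3K18La and 1.74 for H3K27Ac, and the difference between the marks was 1.22 (interaction adjusted p = 0.945 in limma). With the closest protein-coding TSS, 6 of 89 peaks of this list (6.74%) were called higher, against 16.8% of all peaks.

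Müller glia genes had 16 peaks with 3 called higher (18.8%, near the 16.8% of all peaks), and by closest protein-coding TSS 50 peaks with 1 called higher and 1 lower. A peak 45.9 kb from the TSS of Slc1a3, the glial glutamate transporter gene, had H3K18La of 1.25, 1.14 and 0.485 RPKM at 5 mM and 4.02, 4.05 and 3.77 RPKM at 25 mM (log2 fold change 1.65 ± 0.32 SE, adjusted p = 0.0175 in limma). Its neighbour 42.5 kb away had 4.31, 2.46 and 5.36 RPKM against 6.47, 2.68 and 4.29 RPKM, with overlap and no call in limma, and the Dkk3 peak had a log2 fold change of 1.28 without a call in limma or voom. Progenitor and Notch genes had 15 peaks with 0 called in limma (2 at an unadjusted p under 0.05). Voom also called 0 of the 15, against 25.8% of all peaks. By closest protein-coding TSS there were 63 peaks with 6 called higher in limma. The 3 strongest of the 15 lay near Neurod4 and Ccnd1 with log2 fold changes of 0.17 to 1.21. Bipolar genes had 3 peaks, near Irx5, Irx6 and Grik1, with 0 called in limma or voom (0 at an unadjusted p under 0.05) and log2 fold changes of -0.42 to 0.87, and by closest protein-coding TSS 20 peaks with 1 called.

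Genes of glucose metabolism had 7 peaks, of which limma called 1 and voom 3, against 17% and 25.8% of all peaks. The median log2 fold change over the 7 was 0.89. By closest protein-coding TSS the list had 42 peaks with 7 called higher (16.7%, against 16.8% of all peaks) and a median of 0.21. The 1 called peak lay 24.1 kb upstream of Pdk3, a kinase that inhibits pyruvate dehydrogenase, at chrX:93856294-93857688. Its H3K18La was 2.38, 1.80 and 1.58 RPKM at 5 mM and 7.66, 7.93 and 10.4 RPKM at 25 mM (log2 fold change 1.92 ± 0.24 SE, adjusted p = 0.00643 in limma), and its H3K27Ac 1.82 and 2.42 RPKM against 6.88 and 4.63 RPKM. Peaks near Arrdc4, a glucose-induced arrestin gene, and Ldhb, a lactate dehydrogenase gene, had log2 fold changes of 1.27 and 1.36 for H3K18La and were not called in limma, but were with voom (adjusted p of 0.00967 and 0.00566). Genes of lens, pigment epithelium, vessels and other cells had 6 peaks, among them Pecam1, Crygs and Mitf, with 0 called in limma or voom (0 at an unadjusted p under 0.05) and a median log2 fold change of 0.26. By closest protein-coding TSS they had 35 peaks with 1 called. The gene lists were short and were chosen with results of these data known, so their counts are descriptions.

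**Figure D4:**
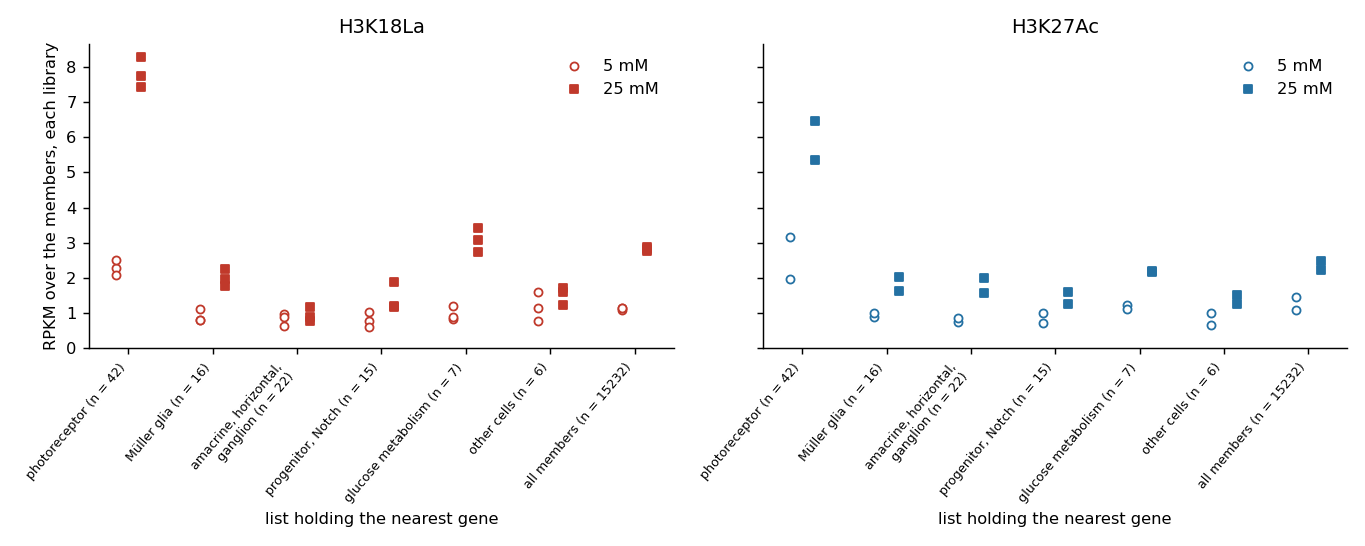
RPKM over all peaks whose closest gene is on a list, in each library, with the number of peaks in brackets (the bipolar list, with 3 peaks, is not drawn). Open circles are 5 mM and filled squares 25 mM. Photoreceptor peaks were highest in both marks, and the lists of amacrine, horizontal and ganglion cells and of other cells overlapped between glucose levels for H3K18La but not for H3K27Ac.

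H3K27Ac gave no call at single peaks in the planned fit. With 2 libraries per group, limma called 0% of all peaks and none of this set at an adjusted p under 0.05. At an unadjusted p under 0.05 it found 2264 of the set (14.9%, 1900 of them higher at 25 mM) against 28.6% of all peaks. With robust moderation 907 of the set (5.95%) were called, against 16.6% of all peaks. With voom on the recovered reads 1172 (7.69%) were called, against 21.2% of all peaks, and with peaks under a mean of 1 RPKM left out 1249 of 6141 (20.3%, against 34.1% of all peaks so filtered). The groups did not overlap, with 25 mM higher, in 32.5% of the set and in 53% of all peaks. The median log2 fold change was 0.24, against 0.58 over all peaks (0.20 with peaks lacking reads in a group at their bounds). Like that of H3K18La it turned negative under the other scalings, -0.46 with reads in peaks and -0.19 with median centring.

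Among peaks with an unadjusted p under 0.05 and a mean of at least 1 RPKM, the largest H3K27Ac rises were near Mrps23, Gm47203, Gm49466, Gm6286 and Thrb. At the peak 22.6 kb downstream of Mrps23, a mitochondrial ribosomal protein gene, H3K27Ac was 0 and 0.340 RPKM at 5 mM and 6.17 and 6.83 RPKM at 25 mM. H3K18La at that peak was 0, 1.63 and 0 RPKM against 3.23, 1.04 and 1.43 RPKM, with overlap. At the Gm49466 peak no 5 mM library had an H3K27Ac read and 25 mM was at least 4.32-fold higher. The largest falls, near Gm29243, Gm37828 and Gm41708, went from 1.66 to 2.98 RPKM at 5 mM to 0 to 0.588 RPKM at 25 mM, on at most 6 reads per library. None of these 8 peaks passed the adjusted threshold in the planned limma fit. All 8 passed with robust moderation (adjusted p of 0.00174 to 0.0239 in limma), and with voom all but the falls near Gm29243 and Gm41708 did (adjusted p of 0.0577 and 0.0941).

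The 2 marks were compared peak by peak. A higher mean at 25 mM in both marks was seen in 51.8% of the set, in H3K18La alone in 23.9% and in H3K27Ac alone in 11.3%. Over all peaks these shares were 67.4%, 14.6% and 10.6%. Across the 15232 peaks Pearson's r was 0.84 between the mean log2 levels of the marks and 0.40 between their log2 fold changes, against 0.73 and 0.43 across all peaks, and these points share libraries and depth. The H3K27Ac fold change was smaller than that of H3K18La with a median difference of -0.34 on the log2 scale (-0.20 over all peaks). The glucose by mark interaction in limma called 0 of the set and 0% of all peaks. At an unadjusted p under 0.05 it found 843 (5.53%) against 4.79% of all peaks, and 702 of the 843 had the smaller rise in H3K27Ac, as did 3612 of 5182 over all peaks.

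The set was also ranked by the other mark, over its libraries at both glucose levels. Since the 25 mM values enter the rank and the folds of the marks correlate, the order of the ratios below is in part set by the ranking and is a description. In the 10% of peaks with the least H3K27Ac, H3K18La was 0.380 RPKM at 5 mM and 0.358 RPKM at 25 mM, a ratio of 0.943, and 1.84% were called. This bin lay near the H3K18La density outside all peaks, 0.335 RPKM at 5 mM and 0.247 to 0.262 RPKM at 25 mM. The ratio was 1.63 in the fifth of the 10 bins and 2.62 in the ninth. In the 10% with the most H3K27Ac, H3K18La went from 2.68 ± 0.0213 RPKM to 9.49 ± 0.139 RPKM (SD, n = 3), a ratio of 3.54, and 64.2% were called, where 12.5% of the set and 17% of all peaks were. H3K27Ac ranked by H3K18La went from a ratio of 0.814 in the lowest bin to 2.43 in the highest. The lowest bin of either ranking had narrower peaks (median 486 bp) and more repeat sequence (median 18.04% to 21.7% of bases) than the highest. TAATCC stood in 14.0% of the peaks with the most H3K27Ac and in 11.3% of those with the least.

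**Figure D5:**
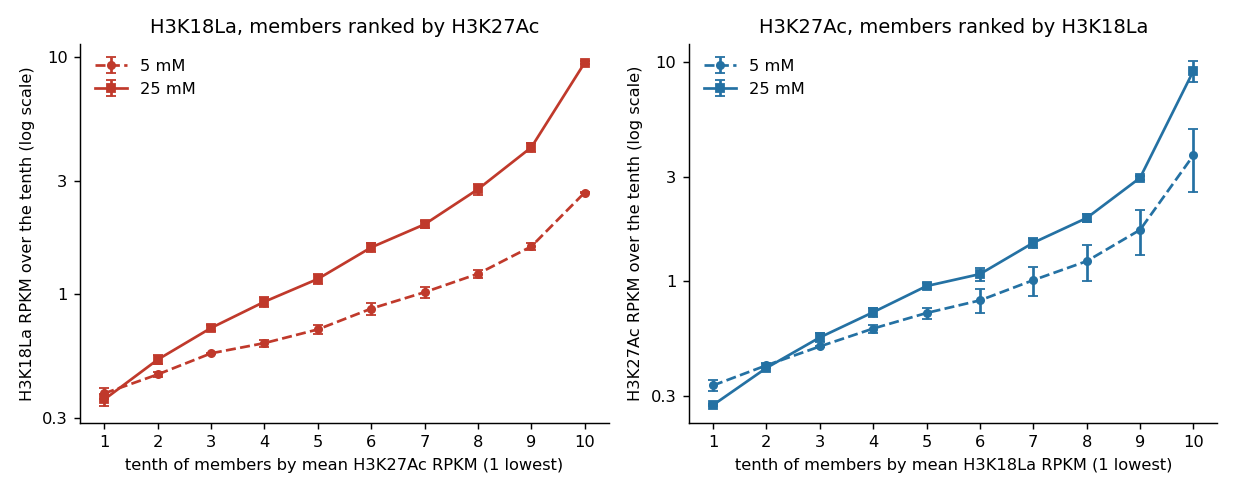
RPKM over 10 bins of equal size of the intergenic peaks 20 to 100 kb from a TSS, ranked by the mean of the other mark over its libraries, at 5 mM (dashed) and 25 mM (solid) glucose, on a log scale with the SD over libraries (n = 3 for H3K18La, n = 2 for H3K27Ac). The lines meet in the lowest bins and part toward the highest, where the ratio was 3.54 for H3K18La and 2.43 for H3K27Ac.

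Peaks next to the distance limits had these values. Just inside 20 kb, a peak upstream of the cytokine gene Il10 had mean H3K18La of 1.04 RPKM at 5 mM and 3.99 RPKM at 25 mM, and one near Gm10646 had 0.746 and 0.879 RPKM. Just outside, peaks near Gm9139 and Gm31562 had 1.52 and 3.03 RPKM at 5 mM and 4.28 and 10.3 RPKM at 25 mM. Just inside 100 kb, a peak near Sp4 had no H3K18La read at 5 mM and 1.85 RPKM at 25 mM, and one near Thsd7b had 0.888 and 0.311 RPKM. Just outside, peaks near 1700025K04Rik and Gm34804 had 0.811 and 3.55 RPKM at 5 mM and 0.914 and 4.23 RPKM at 25 mM.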

How the data were processed

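CUT&Tag reads were aligned by the authors to GRCm38 with nf-core/cutandrun, peaks were called with MACS, counted with csaw over merged consensus peaks and annotated with ChIPseeker 1.34.1. The authors deposited RPKM values per peak and library. A further deposited table of their H3K18La fold changes, p-values and group means was not used. Replicates were not pooled in the RPKM table. The tools and build are as the submitters' processing notes and the methods give them.

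Reads were recovered from RPKM and peak width (100% of values within 0.01 read of a whole number), but whether the authors' window factors enter the denominators is not known. Each mark was fitted in limma 3.58.1 (R 4.3.3, trend) on log2(RPKM + 0.5) over all peaks without a filter. Such folds understate the change of weak peaks. Single values per library were compared by exact permutation. Sequences and repeats came from the GRCm38 genome of NCBI, protein-coding TSSs from GENCODE M21. The fit was tested on simulated data. Intervals of counting error are not given. Floors of 3 reads cover only the counting error of the group without reads, and not that of the other group.

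The regions, gene lists and motifs were chosen with earlier results of these data known. Named were the 5 peaks with the highest mean per mark, the 5 largest rises and 3 largest falls per mark (adjusted p under 0.05, or unadjusted where none passed, no overlap, mean of at least 1 RPKM), the strongest peak of the 5 genes with most peaks, the 3 strongest peaks per gene list, the 3 runs with most signal and the 2 peaks on each side of each distance limit. Groups came from the labels. Results were recomputed with pseudocounts of 0.1 and 1, without peaks under a mean of 1 RPKM, with 2 other scalings, robust moderation, voom, a replicate block, a threshold of 0.01, autosomes, and without each library in turn. The sequence of 1 peak is not reported here.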

Additional observations from a re-analysis of the deposited data

Results flagged for a closer look

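The peak at chr9:74423130-74423754, 58.1 kb upstream of Nr1h2-ps, is listed because all 25 mM libraries were below all 5 mM libraries for H3K18La and above them for H3K27Ac. H3K18La was 3.03, 1.23 and 3.53 RPKM at 5 mM and 0 in the 3 libraries at 25 mM, and H3K27Ac was 0.370 and 0.258 RPKM at 5 mM and 0.890 and 1.29 RPKM at 25 mM. The interaction was 3.50 on the log2 scale (interaction adjusted p = 0.945 in limma), so it did not pass the adjustment. The H3K27Ac values rested on 1, 1, 4 and 6 reads. Of the 15232 peaks, 16 (0.105%) had this pattern and 161 (1.06%) the opposite one, against 0.176% and 0.701% of all peaks.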

How the results depend on the processing

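For H3K18La the 1911 calls became 0 with scaling to reads in peaks (1362 at an unadjusted p under 0.05 in limma), 426 with median centring, 1077 with the replicate block and 492 at a threshold of 0.01, where 0, 4396, 11183 and 5175 of all 108253 peaks were called. Leaving out a library gave 655 to 1745 calls (655, 839 and 1246 without replicates 2, 3 and 1 at 25 mM, 1211 without replicate 2 at 5 mM), and 6322 to 16583 over all peaks. The other settings left 1586 to 2813, and 15313 to 27956 over all peaks tested. For H3K27Ac the count of 0 became 1249 with the 1 RPKM minimum, 907 with robust moderation and 1172 with voom. The median log2 fold change of H3K18La was 0.99 and 0.40 with pseudocounts of 0.1 and 1, 1.03 with the 1 RPKM minimum, -0.14 with reads in peaks, -0.055 with median centring and 0.53 to 0.65 without a library. For H3K27Ac these were 0.40, 0.16, 0.59, -0.46, -0.19 and 0.16 to 0.34. Deviations from the group means correlated at -0.00401 to 0.0238 between libraries with the same replicate number. At these read counts this cannot show whether the libraries were paired. The interaction had 0 calls with and without the block (861 at an unadjusted p under 0.05 with it, in limma).

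Among peaks of at least 1 RPKM the glucose differences over both marks were 1.26 in the share of the denominator, -0.16 against intergenic peaks within 20 kb and 0.12 against those beyond 100 kb, and none passed the adjusted threshold. Without a library, the glucose difference was 1.00 to 1.22 in the share of the denominator, -0.29 to -0.22 in the in-peak share, -0.24 to -0.19 against the near and 0.19 to 0.25 against the far peaks. The mark difference was 1.04 to 1.11 in the in-peak share, 1.81 to 2.00 against promoters, 0.52 to 0.58 against the near and -0.33 to -0.27 against the far peaks. Each of the glucose and mark differences that passed at an adjusted p of 0.0452 missed 0.05 in 6 of these 10 fits. These were the fits without any 1 of the 4 H3K27Ac libraries or without H3K18La replicate 2 or 3 at 5 mM. Without those H3K18La replicates the adjusted p was 0.0528 to 0.0905 in exact permutation tests. The unadjusted p of the mark differences was then 0.0167, the smallest that the fewer permutations allow, against 0.01 with all libraries. That of the glucose difference stayed at 0.0167 in the share of the denominator and against the far peaks, and rose to 0.0333 against the near peaks. No other cause of the misses was tested. The in-peak glucose difference passed without H3K18La replicate 3 at 25 mM (-0.28, adjusted p = 0.0396 in the exact test). Of 54 named peaks, 32 were called for H3K18La, and all 32 lost the call when scaled to reads in peaks. Depth limits single peaks, since the median held 1 to 4 reads per library.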
